A study of Homo sapiens with 6 samples.

Results

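Antisense RNAs are transcripts made from the strand opposite to another gene, here called the sense partner, and their approved symbols carry the partner's symbol followed by -AS and a number. The 200 antisense RNAs described here were all those with such a symbol and at least 40 cDNA counts summed over 4 TIRR iCLIP libraries, out of 1234 such symbols and 28231 genes listed in any of these libraries. They were chosen by their summed iCLIP counts, so their level in iCLIP is a description. Per the labels, the irradiated cells got a 5 Gy dose of X-rays and 4 h of recovery, and the untreated cells got no dose. In iCLIP both groups were U2OS cells, a human osteosarcoma line, that stably carry FLAG-tagged TIRR, with 2 libraries of irradiated and 2 of untreated cells. In RNA-seq both groups were wild-type U2OS cells without the tagged protein, with 1 library of irradiated and 1 of untreated cells. The design text names X-rays for iCLIP and gamma radiation for RNA-seq, so whether both assays used the same source cannot be told apart from a difference in wording. It also names empty-vector cells, which were not analysed here, so an iCLIP count includes any RNA that came down without TIRR.

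TIRR, the product of NUDT16L1, is an RNA-binding protein that holds the repair protein 53BP1 away from chromatin until DNA is broken. iCLIP fixes RNA to protein with ultraviolet light, recovers the protein with an antibody and counts the cDNA copies of the attached RNA. Antisense RNAs often start near the promoter of their partner or run through it, and some are known to affect the partner's transcription, splicing or RNA stability.

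The irradiated iCLIP libraries held 400723 and 664777 counts on genes and the untreated ones 781997 and 799709, against 13023903 (irradiated) and 13015406 (untreated) in RNA-seq. The labels do not say that replicates came from separate cultures, so p-values reflect the spread of these 4 libraries alone, and that spread may be technical. Replicates differed by more than counting error, with a chi-square over degrees of freedom of 1.97 for the irradiated pair and 1.51 for the untreated pair. In RNA-seq the 7 osteoblast and mesenchymal markers summed to 103887 counts in irradiated and 97058 in untreated cells, although COL1A2 and TWIST1 were nearly undetected, with 2 and 1 counts in irradiated and 6 and 3 in untreated cells. The 4 epithelial markers summed to 2730 counts in irradiated and 2695 in untreated cells, of which KRT8 gave 2641 and 2613. The 3 neural markers summed to 351 in irradiated and 296 in untreated cells, and the 3 endothelial markers to 70 and 62. The 4 blood markers summed to 13 counts in irradiated and 12 in untreated cells.

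The antisense RNAs took a small and even part of the iCLIP reads. They held 1.45% and 1.54% of the gene counts in the irradiated libraries and 1.51% and 1.49% in the untreated ones, against 0.788% (irradiated) and 0.813% (untreated) in RNA-seq. Of the 200, 190 carry the suffix AS1, 7 AS2 and 3 AS3. Their summed iCLIP counts ran from 40 to 6048 with a median of 84.5, and the 10 highest held 38.0% of the counts of all 200. At the minimum, 10 RNAs had exactly 40 counts, among them DNAJC27-AS1, ITFG2-AS1 and LY86-AS1, and 5 that were left out had 39, among them CNPY2-AS1, GNG12-AS1 and SEPTIN4-AS1. The sense partner was matched for 192 RNAs, and 150 of these pairs had both genes listed in iCLIP. The iCLIP tables left out 1261 of the 6123 genes with at least 500 counts in untreated RNA-seq, so a partner that is not listed has no value here, which is not the same as 0.

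In RefSeq (GRCh38.p14), positions were found for both genes of 188 pairs, and 155 of these overlap. All 124 pairs with 2 known strands lie on opposite strands. The starts lie within 1000 bases of each other in 30 pairs, and 15 of those are divergent, meaning that the genes point away from each other. The RefSeq span was within 10% of the length in the deposited tables for 92 of 192 RNAs and under 50% of it for 50, so the authors' gene models often reach further than the positions given here. LMCD1-AS1 spans 280512 bases in RefSeq and 638339 bases in the deposited tables.

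The promoters of 4 antisense RNAs and 1 sense gene are printed because the results below turn on these genes, each from 250 bases before to 50 after the RefSeq start (GRCh38.p14), read along the gene. LMCD1-AS1 (chr3:8501609-8501908, minus strand) and LMCD1 (chr3:8501573-8501872, plus strand) are a divergent pair with starts 165 bases apart, and both fell in iCLIP after irradiation. Capitals in these 2 mark the 264 bases that the windows share, read in opposite directions. In NECTIN3-AS1 (chr3:111069910-111070209, minus strand) and IL12A-AS1 (chr3:160207043-160207342, minus strand), capitals mark a match to the p53 half-site consensus. In MAGEA4-AS1 (chrX:151911034-151911333, minus strand), the called RNA with the most counts, capitals mark its 2 CG dinucleotides.
LMCD1-AS1: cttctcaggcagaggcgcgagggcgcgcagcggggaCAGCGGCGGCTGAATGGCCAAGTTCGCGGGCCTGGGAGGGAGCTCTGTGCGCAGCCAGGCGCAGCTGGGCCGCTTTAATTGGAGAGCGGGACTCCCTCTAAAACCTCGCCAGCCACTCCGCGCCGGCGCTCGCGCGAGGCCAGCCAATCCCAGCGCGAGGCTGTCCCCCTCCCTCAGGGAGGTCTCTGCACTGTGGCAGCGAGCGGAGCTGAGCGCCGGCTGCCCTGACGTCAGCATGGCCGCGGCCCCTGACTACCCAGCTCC
LMCD1: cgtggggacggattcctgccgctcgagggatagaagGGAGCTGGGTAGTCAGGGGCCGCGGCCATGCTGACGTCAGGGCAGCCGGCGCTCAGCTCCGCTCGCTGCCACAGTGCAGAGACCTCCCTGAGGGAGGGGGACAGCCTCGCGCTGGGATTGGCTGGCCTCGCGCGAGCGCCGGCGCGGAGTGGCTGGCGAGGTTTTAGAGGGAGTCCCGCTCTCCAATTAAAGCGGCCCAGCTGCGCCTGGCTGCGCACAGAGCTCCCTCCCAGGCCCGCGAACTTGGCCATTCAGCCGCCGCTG
NECTIN3-AS1: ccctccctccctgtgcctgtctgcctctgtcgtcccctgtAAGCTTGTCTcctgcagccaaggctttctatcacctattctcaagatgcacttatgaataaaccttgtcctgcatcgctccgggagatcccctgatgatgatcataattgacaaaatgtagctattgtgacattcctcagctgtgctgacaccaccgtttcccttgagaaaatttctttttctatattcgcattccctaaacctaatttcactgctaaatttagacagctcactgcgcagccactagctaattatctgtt
IL12A-AS1: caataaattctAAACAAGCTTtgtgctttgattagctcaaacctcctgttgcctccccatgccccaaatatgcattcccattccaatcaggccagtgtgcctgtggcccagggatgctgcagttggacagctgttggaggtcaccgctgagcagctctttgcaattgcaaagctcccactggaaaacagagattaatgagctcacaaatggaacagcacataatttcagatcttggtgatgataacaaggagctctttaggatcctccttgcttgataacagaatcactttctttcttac
MAGEA4-AS1: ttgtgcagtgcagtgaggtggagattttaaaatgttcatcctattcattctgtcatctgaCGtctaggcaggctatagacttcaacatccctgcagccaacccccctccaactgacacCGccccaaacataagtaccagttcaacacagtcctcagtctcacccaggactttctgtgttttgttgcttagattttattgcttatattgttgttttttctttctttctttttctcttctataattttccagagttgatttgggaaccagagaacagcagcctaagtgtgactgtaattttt

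Promoters were available for 144 of the 200 antisense RNAs. The p53 half-site consensus reads the same on both strands, and it was present in 14 of these 144 (9.72%) and in 6.54% of all 27305 RefSeq promoters of this length. Among the promoters of sense partners, 5 of 156 (3.21%) held it. Of the 8 called antisense RNAs with a promoter, 2 held it (NECTIN3-AS1 and IL12A-AS1), and it was absent from the windows of the other 6, of which MAGEA4-AS1, THUMPD3-AS1, THBS2-AS1 and PAX8-AS1 also rose. TATAAA, searched on both strands, was present in 9.03% of the antisense promoters and in 12% of all. CG, which also reads the same on both strands, occurred a median of 20 times in the antisense promoters and 14 times in all, with 30 in the LMCD1-AS1 window, 6 in NECTIN3-AS1, 2 in MAGEA4-AS1 and 1 in IL12A-AS1. A match is a description of these letters and not of a bound site.

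CCDC144NL-AS1 stood far above the other antisense RNAs in iCLIP. It had 773 and 1626 counts in the irradiated libraries and 1828 and 1821 in the untreated ones, which was 2103 and 2619 CPM (counts per 1000000 TMM-scaled gene counts) in irradiated and 2406 and 2338 in untreated libraries. The groups overlapped, and the fitted log2 change was 0.00 (SE 0.12). CCDC144 genes have closely related copies, so reads may have been shared between copies during counting. MAGEA4-AS1 came next with 1697 counts, followed by ZFPM2-AS1 with 1490, GNAS-AS1 with 1151, HDAC2-AS2 with 989, LMCD1-AS1 with 929, BCAN-AS2 with 741, LIPE-AS1 with 726, ALOX12-AS1 with 676 and PSMA3-AS1 with 643. Their partners range from the GATA cofactor ZFPM2 and the histone deacetylase HDAC2 to the stimulatory G protein subunit GNAS, the brain proteoglycan brevican (BCAN) and the proteasome subunit PSMA3. Per length the order changed, since ZFPM2-AS1, HDAC2-AS2 and LMCD1-AS1 cover 513188, 502005 and 638339 bases in the tables. MAGEA4-AS1 had 177.9 summed counts per kb of the length in the tables, CTNS-AS1 95.5, BCAN-AS2 49.7 and SLC16A4-AS1 48.4, against 2.90 for ZFPM2-AS1 and 1.97 for HDAC2-AS2. The median antisense RNA had 1.55 counts per kb, below the 2.41 of all genes with at least 40 counts.

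Irradiation changed the iCLIP level of 10 of the 199 antisense RNAs tested, 8 up and 2 down (edgeR quasi-likelihood test, Benjamini-Hochberg adjusted p under 0.05 over all 9230 genes tested). That was 5.03% of the antisense RNAs, against a background of 3.48% of all genes tested (2.44% up and 1.04% down). Without adjustment, 29 passed p under 0.05 (14.6%), the same share as all genes (14.6%). The median log2 change was 0.01 for the antisense RNAs and 0.00 for all genes. The 2 groups of libraries did not overlap for 86 antisense RNAs (43.2%), against 43.9% of all genes. The count of calls fell to 6 without untreated replicate 1, to 6 without untreated replicate 2 and to 4 with DESeq2.

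FLG-AS1, NECTIN3-AS1 and THBS2-AS1 were more than 2-fold higher after irradiation. FLG-AS1, at the gene of the skin barrier protein filaggrin, had 125 and 114 CPM in irradiated libraries, against 40.8 and 47.5 CPM in untreated ones. Every irradiated library was above both untreated ones, a log2 change of 1.42 (SE 0.23, adjusted p = 0.000971, edgeR). NECTIN3-AS1 starts 1857 bases from NECTIN3, a cell-cell adhesion receptor, and points away from it in RefSeq. It had 239 and 299.6 CPM in irradiated libraries and 146 and 117 CPM in untreated ones. The groups did not overlap, with a log2 change of 1.06 (SE 0.17, adjusted p = 0.00134, edgeR). THBS2-AS1 overlaps THBS2, the gene of the matrix protein thrombospondin 2, and had 128 and 124 CPM in irradiated libraries, against 59.2 and 53.9 CPM in untreated ones. The groups were apart, with a log2 change of 1.15 (SE 0.21, adjusted p = 0.00341, edgeR). DESeq2 did not call THBS2-AS1 (adjusted p = 0.148). Of the RNAs described next, it also did not call TRAF3IP2-AS1 (adjusted p = 0.329), THUMPD3-AS1 (0.274) or CALCRL-AS1 (0.251).

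MAGEA4-AS1 lies on chromosome X beside MAGEA4, which encodes a cancer-testis antigen. It had 963 and 947 CPM in irradiated libraries and 508 and 474 CPM in untreated ones. Replicates lay close together and the groups far apart, a log2 change of 0.96 (SE 0.13, adjusted p = 0.000132, edgeR). MAGEA genes have near-identical copies, so these counts may mix copies. TRAF3IP2-AS1, at the gene of the interleukin 17 receptor adapter Act1, had 149.7 and 121 CPM in irradiated libraries, against 69.8 and 69.3 CPM in untreated ones. Both irradiated libraries were above both untreated ones, with a log2 change of 0.93 (SE 0.21, adjusted p = 0.0155, edgeR). The call was lost without untreated replicate 1 (adjusted p = 0.0799) or untreated replicate 2 (adjusted p = 0.0703). THUMPD3-AS1, at the gene of a tRNA methyltransferase, had 171 and 264 CPM in irradiated libraries, against 125 and 121 CPM in untreated ones. The second irradiated library carried much of its log2 change of 0.87 (SE 0.19, adjusted p = 0.0170, edgeR): without irradiated replicate 2 it was 0.47 with an adjusted p of 0.379. Without untreated replicate 2 its adjusted p was 0.0526.

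The remaining 2 risers had few counts. PAX8-AS1 overlaps the gene of PAX8, a transcription factor of thyroid and kidney, and had 57.1 and 45.1 CPM (21 and 28 counts) in irradiated libraries, against 17.1 and 16.7 CPM (13 and 13 counts) in untreated ones. The groups did not overlap, with a log2 change of 1.55 (SE 0.35, adjusted p = 0.0172, edgeR), and the call was lost without untreated replicate 1 (adjusted p = 0.0546) or untreated replicate 2 (adjusted p = 0.0544). IL12A-AS1, at the gene of the p35 subunit of interleukin 12, had 35.4 and 32.2 CPM (13 and 20 counts) in irradiated libraries and 9.21 and 11.6 CPM (7 and 9 counts) in untreated ones. Its log2 change was 1.67 (SE 0.43, adjusted p = 0.0377, edgeR). Leaving out any single library lost this call, with adjusted p of 0.218 and 0.0915 without untreated replicate 1 and 2, and 0.0889 and 0.141 without irradiated replicate 1 and 2.

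The antisense RNAs that fell were LMCD1-AS1 and CALCRL-AS1. LMCD1-AS1 had 272 and 259 CPM in irradiated libraries, against 437 and 431 CPM in untreated ones. The groups were apart, and it fell by 0.71 on the log2 scale (SE 0.14, adjusted p = 0.00603, edgeR), with an adjusted p of 0.0678 without untreated replicate 1. Its divergent partner LMCD1, a LIM domain protein that acts as a transcriptional cofactor, had 98.0 and 127 CPM in irradiated libraries and 230.3 and 207 CPM in untreated ones. LMCD1 fell by 0.92 (SE 0.18, adjusted p = 0.00599, edgeR), so both genes of this pair were called, the only such pair in edgeR. With DESeq2 LMCD1 was not called (adjusted p = 0.0743), which leaves no such pair. CALCRL-AS1 runs across CALCRL, the receptor that binds adrenomedullin and calcitonin gene-related peptide together with RAMP proteins. It had 46.3 and 70.9 CPM in irradiated libraries, against 116 and 131 CPM in untreated ones. Without overlap between groups it fell by 1.01 (SE 0.23, adjusted p = 0.0178, edgeR), with an adjusted p of 0.0891 without untreated replicate 2.

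**Figure D1:**
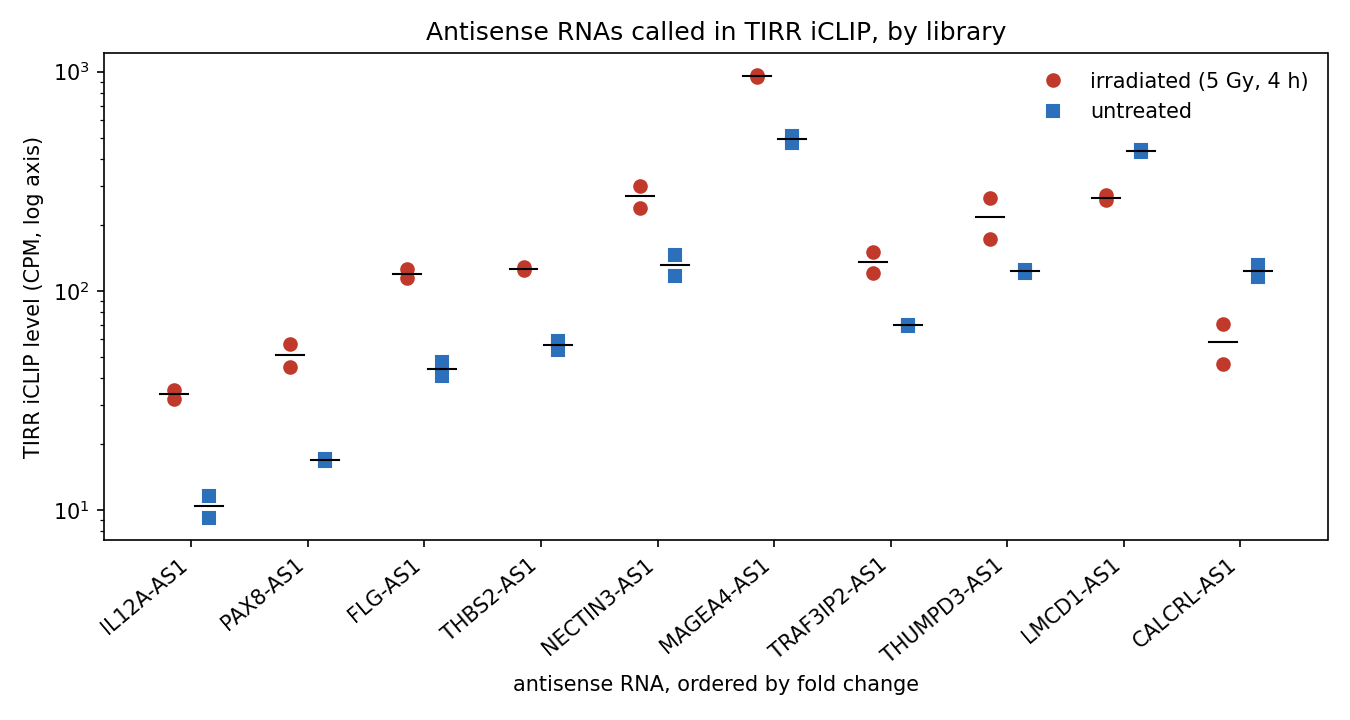
TIRR iCLIP level in CPM (log axis) of the 10 called antisense RNAs, ordered by fold change. Red circles are the 2 irradiated libraries, blue squares the 2 untreated libraries and black lines the group means. The irradiated libraries lie above the untreated ones for 8 RNAs and below them for LMCD1-AS1 and CALCRL-AS1.

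The other abundant antisense RNAs did not pass the test. GNAS-AS1 had 459.9 and 579.9 CPM in irradiated libraries, against 401 and 407 CPM in untreated ones, a log2 change of 0.38 (SE 0.14, adjusted p = 0.204, edgeR) without overlap between the groups. LIPE-AS1 had 359 and 338 CPM in irradiated libraries and 258 and 241 CPM in untreated ones, also without overlap, with a log2 change of 0.48 (SE 0.14). HDAC2-AS2 had 332 and 346 CPM in irradiated libraries, against 446 and 402 CPM in untreated ones. Its groups were apart with the irradiated libraries lower, as were those of ALOX12-AS1, which lies at a lipoxygenase gene and had 207 and 243 CPM in irradiated libraries and 276 and 307 CPM in untreated ones. ZFPM2-AS1, BCAN-AS2 and PSMA3-AS1 had groups that overlapped, with log2 changes of -0.18, 0.15 and -0.01. Over all 189 antisense RNAs tested and not called, the log2 change ran from -1.07 to 1.07.

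Partners were sorted by known role after these results had been seen, so the counts by role are a description. The 5 roles used covered 107 of the 199 antisense RNAs tested and 7 of the 10 called, with MAGEA4-AS1, LMCD1-AS1 and THUMPD3-AS1 in none of them. At genes grouped as adhesion, matrix and surface, 4 of 28 antisense RNAs tested were called, 3 up and 1 down, and 5 passed an unadjusted p under 0.05. These 4 include FLG-AS1, although filaggrin is an intracellular protein. At genes of signalling and ubiquitin enzymes, 2 of 23 were called, both up, and 9 passed an unadjusted p under 0.05. At genes of transcription and chromatin, 1 of 34 was called, up, and 3 passed an unadjusted p under 0.05. None of the 13 at channels, transporters and pumps and none of the 9 at cell division and genome maintenance genes was called by edgeR or DESeq2, and 0 of each passed an unadjusted p under 0.05 in edgeR. Over all genes tested, 3.48% were called and 14.6% passed an unadjusted p under 0.05. For comparison, 16 of 234 LINC RNAs were called (8 up and 8 down) and 3 of 93 transcripts with the divergent suffix -DT.

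A list of 40 antisense RNAs with a described function was chosen with earlier results of these data known. Other described RNAs may be missing from it, so its counts are a description. Of this list, 11 were among the 200 and 12 were tested. None was called by edgeR or DESeq2, 1 passed an unadjusted p under 0.05 in edgeR, and the median log2 change was 0.15. GAS6-AS1, at the gene of the ligand of the AXL receptor tyrosine kinase, came closest with a log2 change of 0.77 (SE 0.22, adjusted p = 0.0613, edgeR). PCBP1-AS1 had the most iCLIP counts of the list, 634, and a log2 change of 0.19 (SE 0.16). The cohesion-related helicase gene DDX11 has DDX11-AS1, with 64 counts and a log2 change of 0.34 (SE 0.46). MCM3AP-AS1 had 173 counts and a log2 change of -0.49 (SE 0.25), and FGD5-AS1 had 138 counts and a log2 change of 0.07 (SE 0.29).

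Among the sense partners, 4 of the 95 tested were called, 3 up and 1 down, which was 4.21% against 3.48% of all genes. DESeq2 called 3 of them, all up. PARD6G, a PAR6 cell polarity protein, had the largest change. It had 373 and 337 CPM in irradiated libraries and 65.8 and 78.3 CPM in untreated ones, a log2 change of 2.29 (SE 0.17, adjusted p = 1.76e-07, edgeR). PARD6G-AS1, which overlaps the end of PARD6G in RefSeq by 21201 bases, had 35.4 and 54.8 CPM in irradiated libraries and 44.7 and 36.0 CPM in untreated ones. These groups overlapped, with a log2 change of 0.22 (SE 0.30). RNF213, a large E3 ubiquitin ligase, had 1045 and 1018 CPM in irradiated libraries, against 629 and 672 CPM in untreated ones, a log2 change of 0.66 (SE 0.12, adjusted p = 0.00332, edgeR) that had an adjusted p of 0.111 without untreated replicate 1. RNF213-AS1 had 174 and 179 CPM in irradiated libraries and 209 and 216 CPM in untreated ones, a log2 change of -0.26 (SE 0.16) that was not called. FRMD6, a FERM domain protein of the Hippo pathway, had 884 and 1050 CPM in irradiated libraries and 616 and 597 CPM in untreated ones, a log2 change of 0.68 (SE 0.13, adjusted p = 0.00455, edgeR), with an adjusted p of 0.0629 without untreated replicate 2. FRMD6-AS2 had 43.5 and 30.6 CPM in irradiated libraries, against 17.1 and 16.7 CPM in untreated ones, a log2 change of 1.07 (SE 0.39, adjusted p = 0.174, edgeR).

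The antisense change was tested in edgeR against the pooled change of its pair for 101 pairs, 95 of them with an antisense RNA described here. The difference from the pooled change passed an adjusted p of 0.05 for 2 of these 95. These are also the only calls among the 101 (1.98%), so that share gives no separate background. Without adjustment, 5 of the 95 passed p under 0.05. On the log2 scale the antisense change minus the sense change was -2.06 for PARD6G-AS1 and -0.93 for RNF213-AS1. In the edgeR test against the pooled change, the adjusted p was 3.66e-05 for PARD6G-AS1 and 0.00376 for RNF213-AS1. The antisense share of the PARD6G pair was 8.67% and 14.0% in irradiated libraries, against 40.5% and 31.5% in untreated ones. In the RNF213 pair it was 14.3% and 14.9% in irradiated libraries and 25% and 24.3% in untreated ones. Leaving out single libraries lost both calls in most cases. For RNF213 the adjusted p was 0.280 and 0.195 without untreated replicate 1 and 2, and 0.0894 and 0.0612 without irradiated replicate 1 and 2, and for PARD6G it was 0.280 and 0.0875 without untreated replicate 1 and 2 and 0.0894 without irradiated replicate 1. The PARD6G call held without irradiated replicate 2 (adjusted p = 0.00979).

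Because that test sets the antisense RNA against its pooled pair, it can hardly call an antisense RNA that holds most of the pair's counts. MAGEA4-AS1 held 95.8% to 98.0% of its pair in iCLIP. Its change minus the sense change was 0.81, with an unadjusted p of 0.887 in that edgeR test. A direct interaction fit of both genes, chosen after seeing the data, called 3 pairs. PARD6G-AS1 (adjusted p = 2.06e-07) and RNF213-AS1 (adjusted p = 0.000164) were called again, and NECTIN3-AS1 was added with a difference of 0.96 (adjusted p = 0.00458). NECTIN3 itself had 128 and 98.3 CPM in irradiated libraries and 101 and 103 CPM in untreated ones, and these overlap. Of the 10 called antisense RNAs, 4 had a partner that could be tested, and the partners FLG and IL12A were not listed in iCLIP. MAGEA4 had 27.2 and 19.3 CPM in irradiated libraries and 19.7 and 20.5 CPM in untreated ones, with 10 to 16 counts a library.

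**Figure D2:**
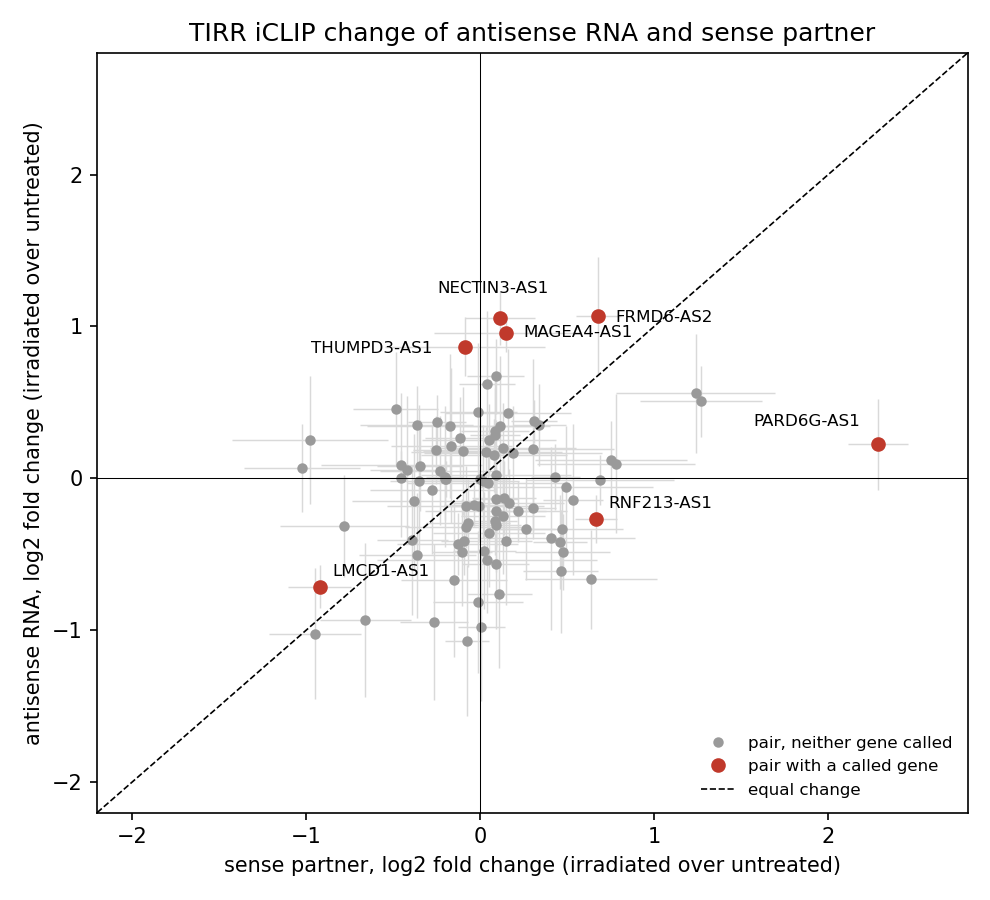
Log2 fold change in TIRR iCLIP (irradiated over untreated) of 95 antisense RNAs (vertical axis) and their sense partners (horizontal axis), with bars of 1 SE. Red points are pairs with a called gene and the dashed line marks equal change. PARD6G-AS1 and RNF213-AS1 lie to the right of the line, and LMCD1-AS1 lies near it with both genes lower.

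In iCLIP the antisense RNA usually held more of the pair's counts than in RNA-seq. For the 148 pairs listed in both assays, its median share of antisense plus sense counts was 64.3% in irradiated and 65.2% in untreated iCLIP libraries, against 40.6% in irradiated and 42.7% in untreated RNA-seq. In untreated cells the share was above 50% for 86 pairs in iCLIP and for 55 in RNA-seq, and it was higher in iCLIP than in RNA-seq for 100 of the 148. The antisense RNAs were chosen by their iCLIP counts and the partners were not, and how much of this difference that choice gives was not tested. The share was over 90% for 34 of the 150 pairs listed in iCLIP and under 10% for 9.

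The MAGEA4 and BCAN pairs differed widely between the assays. The antisense share of the MAGEA4 pair was 97.3% and 98.0% in irradiated iCLIP libraries and 96.3% and 95.8% in untreated ones, against 6.56% in irradiated and 7.46% in untreated RNA-seq, with exact Clopper-Pearson 95% intervals of 5.6% to 7.62% and 6.37% to 8.66%. These intervals cover counting error only. The BCAN pair had an antisense share of 99.0% in the first irradiated and 99.1% in the first untreated iCLIP library, and no BCAN count in the second of either, against 11.1% in irradiated and 10.2% in untreated RNA-seq. GNAS is an imprinted locus, and GNAS-AS1 took 41.4% and 42.9% of the pair's counts in irradiated and 41.8% and 40.5% in untreated iCLIP libraries, against 0.297% in irradiated and 0.257% in untreated RNA-seq. VIM-AS1, at the gene of the intermediate filament vimentin, had similar shares in both, 17.1% and 27.6% in irradiated and 20.5% and 19.7% in untreated iCLIP libraries, against 18.5% in irradiated and 19.2% in untreated RNA-seq.

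**Figure D3:**
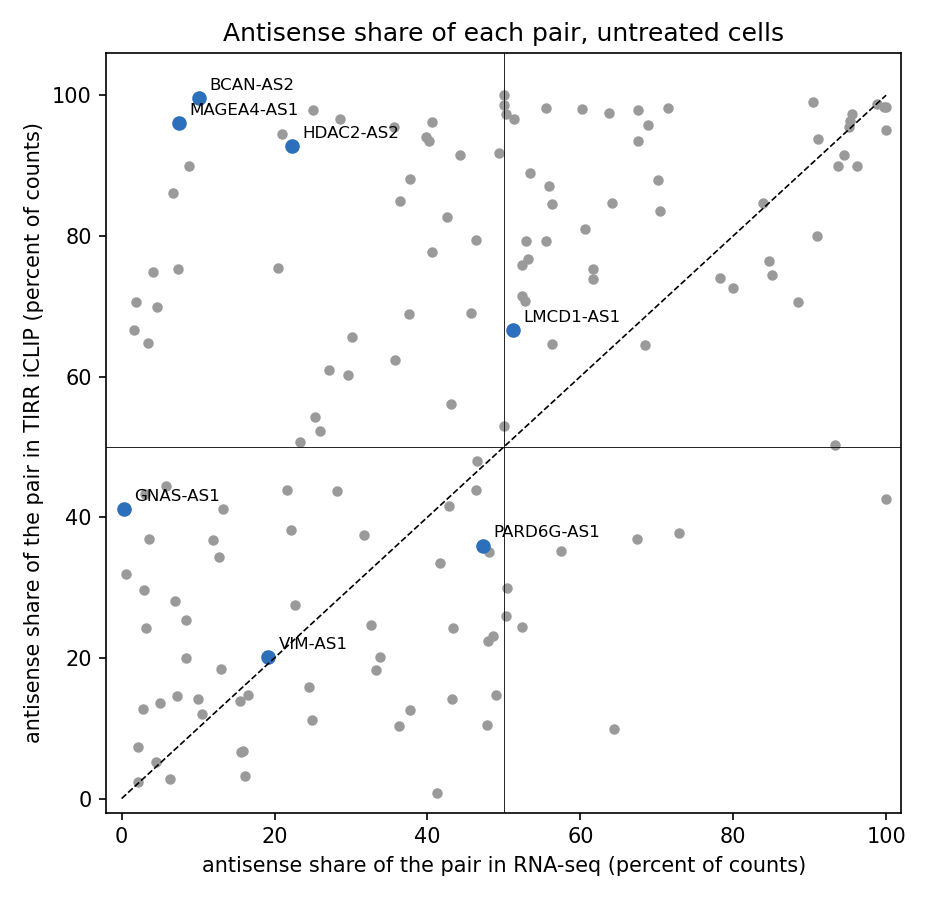
Antisense share of antisense plus sense counts in untreated cells, in percent, for 148 pairs, with TIRR iCLIP (mean of 2 libraries) on the vertical axis and RNA-seq (1 library) on the horizontal axis. Each point is a pair, blue points are named and the dashed line marks equal shares. MAGEA4-AS1, BCAN-AS2 and HDAC2-AS2 lie at the top left, while PARD6G-AS1 lies under the line.

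RNA-seq counts of antisense and sense genes were often nearly equal. Of the 88 pairs with at least 100 untreated RNA-seq counts for each gene, 49 (55.7%) lay within 2-fold of each other. Of the 70 of these pairs that were listed in iCLIP, 41 (58.6%) lay within 2-fold in RNA-seq and 17 (24.3%) in iCLIP. In untreated RNA-seq, LIPE-AS1 had 150 counts and LIPE, which it overlaps by 25875 bases in RefSeq, had 148. LMCD1-AS1 had 2145 counts and LMCD1 2043, although these 2 genes do not overlap in RefSeq. No source used here states the strand setting of the RNA-seq counting. Without it, reads of an antisense RNA and of its overlapping partner cannot be told apart, and RNA-seq values of overlapping pairs are uncertain for this reason.

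RNA-seq gave few large changes for the antisense RNAs. With 1 library a condition there is no test. A gene was taken to pass if its larger library had 100 or more counts, its ratio was 2-fold or more and its whole 95% interval lay past 1.5-fold. Of 115 antisense RNAs with enough counts, 3 passed, 2 up and 1 down, against 1.49% of 12977 genes (0.863% up and 0.624% down). FLG-AS1 had 320 counts in irradiated and 154 in untreated cells, a ratio of 2.05 (95% interval 1.69 to 2.51), and its partner FLG had 161 in irradiated and 71 in untreated cells. PARD6G-AS1 had 1355 counts in irradiated and 500 in untreated cells, a ratio of 2.68 (2.42 to 2.97), and PARD6G had 1444 in irradiated and 559 in untreated cells. The counts assigned to both genes of the PARD6G pair thus passed in RNA-seq, but these genes overlap and the strand setting is not known. A rise of PARD6G-AS1 itself therefore cannot be told apart there from a rise of PARD6G. FLG-AS1 and FLG also both passed, and whether their reads were kept apart by strand is not known either. In iCLIP the groups of PARD6G-AS1 overlapped and those of PARD6G did not. NRSN2-AS1 had 1306 counts in irradiated and 2722 in untreated cells, a ratio of 0.474 (0.444 to 0.507), with iCLIP levels of 92.5 and 48.3 CPM in irradiated and 43.4 and 60.3 CPM in untreated libraries that overlapped. Of 129 partners with enough counts, 3 passed, PARD6G and FLG up and LIPE down. LIPE, the gene of hormone-sensitive lipase, had 71 counts in irradiated and 148 in untreated cells.

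The called antisense RNAs split evenly by their RNA-seq ratio. For 5 of the 10, the 95% interval of the RNA-seq ratio lay beyond 1 on the side of the iCLIP change, for the other 5 it held 1, and for 0 it lay on the opposite side. These intervals cover counting error of 1 library a condition, and not reads that an antisense RNA may share with its partner. The share of uncalled antisense RNAs with an interval beyond 1 was not counted, so this split has no background. Intervals beyond 1 also occurred among uncalled RNAs. Of those in the 10 with the most iCLIP counts, it lay below 1 for CCDC144NL-AS1 (0.809 to 0.888), HDAC2-AS2 (0.660 to 0.863) and LIPE-AS1 (0.589 to 0.973). For PSMA3-AS1 it lay above 1 (1.01 to 1.19). The interval held 1 for ZFPM2-AS1 (0.980 to 1.24), GNAS-AS1 (0.805 to 1.68), BCAN-AS2 (0.930 to 1.43) and ALOX12-AS1 (0.828 to 1.24). NECTIN3-AS1 had 1217 RNA-seq counts in irradiated and 671 in untreated cells (ratio 1.79, 1.63 to 1.97), while NECTIN3 had 912 in irradiated and 885 in untreated cells. LMCD1-AS1 had 1345 in irradiated and 2145 in untreated cells (ratio 0.620, 0.579 to 0.664), with 1245 in irradiated and 2043 in untreated cells for LMCD1. CALCRL-AS1 had 307 in irradiated and 465 in untreated cells (ratio 0.653, 0.563 to 0.756), and IL12A-AS1 had 26 in irradiated and 12 in untreated cells. In the other 5, iCLIP counts changed where no RNA-seq change was detectable at this depth. MAGEA4-AS1 had 157 RNA-seq counts in irradiated and 158 in untreated cells (ratio 0.983, 0.783 to 1.23), and THUMPD3-AS1 had 839 in irradiated and 822 in untreated cells (ratio 1.01, 0.916 to 1.11). In bulk samples, fewer cells with an RNA and less of that RNA per cell cannot be told apart.

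**Figure D4:**
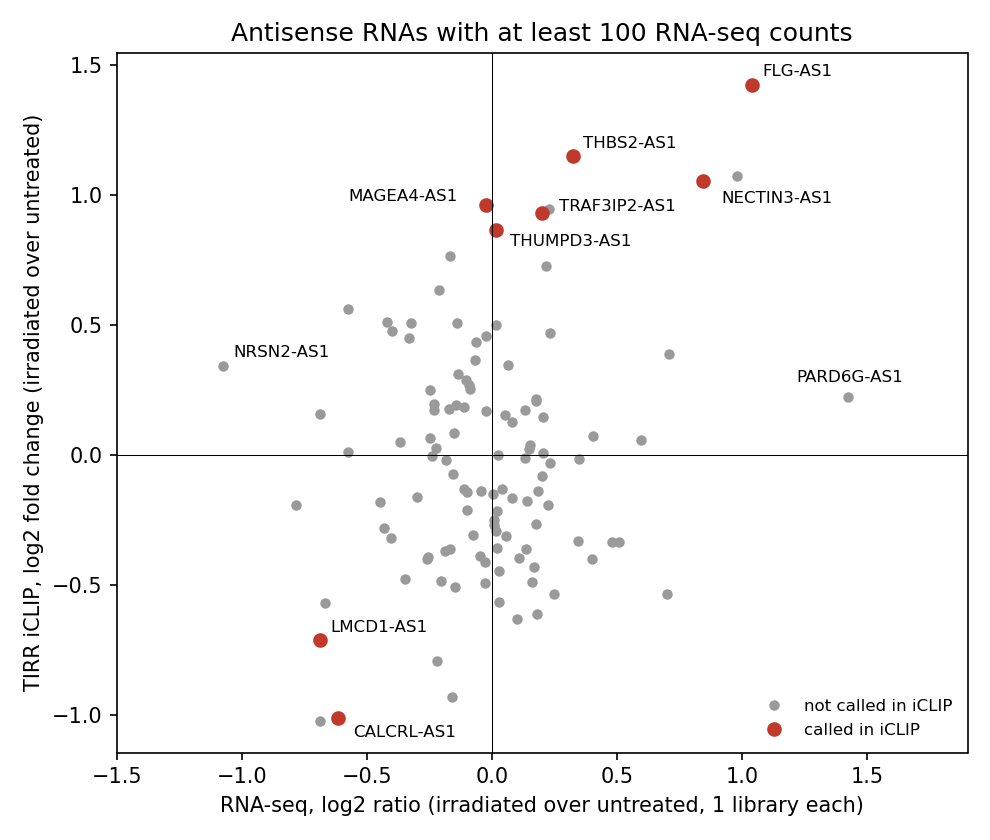
Log2 fold change in TIRR iCLIP (vertical axis) and log2 ratio in RNA-seq (horizontal axis), irradiated over untreated, for 115 antisense RNAs with at least 100 RNA-seq counts in the larger library. Red points are the 8 of these that were called in iCLIP. FLG-AS1 and NECTIN3-AS1 are higher and LMCD1-AS1 and CALCRL-AS1 lower in both assays, while MAGEA4-AS1 and THUMPD3-AS1 are higher in iCLIP with an RNA-seq ratio near 0 on the log2 scale.

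Most antisense RNAs held a larger share of iCLIP counts than of RNA-seq counts, 138 of 173 in untreated cells. The 2 assays used different cells. The log2 of the iCLIP share over the RNA-seq share had a median of 1.62 in irradiated and 1.82 in untreated cells over the 173 antisense RNAs with at least 20 RNA-seq counts. In untreated cells the median was -0.02 for all 13291 genes with as many RNA-seq counts, 0.87 for the 7820 genes that also had at least 40 iCLIP counts, and 0.80 for 128 sense partners. The 423 numbered antisense symbols under the minimum of 40 had a median of -1.49, so the choice by iCLIP counts bears on these values. Among other noncoding RNAs, chosen with no minimum, the median was 1.61 for 242 LINC RNAs and -0.01 for 160 -DT transcripts. With at least 50 RNA-seq counts the antisense median fell to 1.15 in irradiated and 1.10 in untreated cells.

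Among these 173, the 5 highest ratios in untreated cells belonged to GNAS-AS1 with a log2 ratio of 6.45, KCNMB2-AS1 with 6.14, MAGEA4-AS1 with 5.29, TMEM92-AS1 with 5.18 and LENG8-AS1 with 4.96. GNAS-AS1 had 68 RNA-seq counts in irradiated and 58 in untreated cells, beside iCLIP levels of 459.9 and 579.9 CPM in irradiated and 401 and 407 CPM in untreated libraries. KCNMB2-AS1, at the gene of a potassium channel subunit, had 218 and 230.3 CPM in irradiated and 233 and 216 CPM in untreated libraries, and 50 RNA-seq counts in irradiated and 40 in untreated cells. Among the lowest were VIM-AS1 with a log2 ratio of -5.08, ITFG2-AS1 with -4.31, PRDX6-AS1 with -3.61 and GPR84-AS1 with -3.50. VIM-AS1 had 7726 RNA-seq counts in irradiated and 8603 in untreated cells but 16.3 and 25.8 CPM in irradiated and 19.7 and 19.3 CPM in untreated iCLIP libraries, and VIM itself had a log2 ratio of -5.20 in untreated cells. VIM had 33956 RNA-seq counts in irradiated and 36294 in untreated cells. Of 118 pairs with a ratio for both genes, the antisense RNA had the higher one in 79. The antisense RNAs were chosen by their iCLIP counts and the partners were not, so that choice bears on this count.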

How the data were processed

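The authors deposited, per the file headers, whole-number cDNA counts per gene and, as a percent, the part of a library's cDNA that falls on each gene, for 4 iCLIP and 2 RNA-seq libraries. The genome build is hg38 and kallisto 0.44.0 is named for RNA-seq, per the submitters' processing notes. The aligner, the removal of duplicates, the strand setting and how kallisto relates to the gene tables were not given in the sources used here. Antisense RNAs and lists were chosen with earlier results of these data known. Counts on genes were used, and intergenic counts (30.6% to 31.3% of iCLIP and 44.4% of RNA-seq counts) were left out. Irradiated and untreated iCLIP libraries were compared by the quasi-likelihood test of edgeR 4.0.16 under R 4.3.3 (TMM scaling, filterByExpr, two-sided, Benjamini-Hochberg over all genes tested). Of the 200, 1 failed the filter on low counts. The antisense change was compared with the pooled change of its pair by diffSpliceDGE on the same fit, over pairs in which both genes passed the filter. With 2 libraries against 2 an exact permutation test of a single value cannot go below p = 0.333. RNA-seq ratios are TMM-scaled with exact conditional 95% intervals of counting error. The iCLIP share over the RNA-seq share used a prior count of 0.5. Genes with different identifiers in the 2 assays were joined where they share a unique symbol (118 genes, 1 of them an antisense RNA). Positions and promoters came from RefSeq tables (GRCh38.p14). Text names every called antisense RNA, those with a called partner, the 10 with the most counts and the 5 highest and lowest ratios. It also names those past the RNA-seq size rule, called pairs and part of the described list, with the values a comparison needs. One antisense RNA that this rule names, with its partner, is not reported here. Alternatives were DESeq2 1.42.0, other scaling and filters, a replicate block and leaving out each library. Python 3.11.15, pandas 2.3.3, scipy 1.17.1 and matplotlib 3.10.9 were used, and the count tests were first tested on simulated data.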

Additional observations from a re-analysis of the deposited data

How the results depend on the processing

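The called antisense RNAs, called partners and called pairs kept their direction under each alternative run that gave them a value. PAX8-AS1 and IL12A-AS1 had no DESeq2 value to compare. Of the 189 antisense RNAs not called, 88 turned their sign when some 1 library was left out, among them CCDC144NL-AS1, BCAN-AS2, PSMA3-AS1, PARD6G-AS1 and NRSN2-AS1. Of the antisense RNAs, 10 were called in the report, 6 to 10 were called when 1 library was left out, and DESeq2 called 4 (MAGEA4-AS1, FLG-AS1, NECTIN3-AS1 and LMCD1-AS1). The called sense partners numbered 3 to 5 with 1 library left out and 3 with DESeq2. With the replicate block, 9 antisense RNAs, 4 partners and 2 pairs were called, and IL12A-AS1 was lost (adjusted p = 0.0750). Libraries with the same number did not deviate together (correlation -0.09). With 2 libraries a group this 1 correlation cannot decide whether the numbers pair them. The pair test called 0 to 1 pairs with 1 library left out and 1 pair with no filter on low counts, where 974 pairs were tested. The interaction fit, chosen after seeing the data, called 3. Per kb of gene length the median antisense share was 53.5% in irradiated and 58.2% in untreated iCLIP libraries, and with single libraries it was 62.1% to 64.2% in irradiated and 64.6% to 66.7% in untreated ones. The median log2 ratio of iCLIP to RNA-seq share was 1.73 in irradiated cells with a prior count of 2, 1.15 in irradiated and 1.10 in untreated cells with at least 50 RNA-seq counts, and 1.93 in irradiated and 2.14 in untreated cells as percent of all counts. With single libraries it was 1.47 to 1.62 in irradiated and 1.75 to 1.83 in untreated cells. Among 158 values of single genes and pairs under an alternative, 130 kept the side of the threshold and 28 fell under it. These values leave out PAX8-AS1 and IL12A-AS1 with DESeq2, which did not call them. Depth limits the lowest antisense RNAs, with under 20 counts a library.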
